A study of Mus musculus with 5 samples.

Results

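The genes described here are 10 transcription regulators that set or mark the basal and luminal lineages of the mammary gland, Trp63, Id4, Elf5, Cited1, Foxa1, Gata3, Esr1, Sox9, Ehf and Elf3. They were taken by gene symbol, as 10 of the 18384 genes counted in single cells of MMTV-PyMT breast cancer organoids. These organoids come from mammary tumors of mice that carry the viral oncogene PyMT under the MMTV promoter, which is active in mammary epithelium, and every group shares this transgene. After expansion in BME (a gel of basement membrane extract), organoids were moved either into Collagen I, in which they invade, or back into BME, in which they do not, and were kept there for 5 days. Live single cells were then sorted into 384-well plates and their transcripts were counted by SORT-seq, which tags each molecule at its 3' end. Collagen I plates 1 and 3 and BME plates 1, 2 and 3 were analysed. The second plate of Collagen I is not analysed here.

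The mammary epithelium has an outer layer of basal cells, which touch the basement membrane, and an inner layer of luminal cells. Each layer is held in its state by its own transcription factors. In the basal layer p63 (the product of Trp63) maintains basal keratins and adhesion to the matrix. In the luminal layer the ETS factor Elf5 is linked to milk-secreting progenitors, and Foxa1 and the estrogen receptor (Esr1) to hormone-sensing cells. Gata3 is linked to the luminal layer as a whole. The comparisons ask which of these factors differ between the invasive and the non-invasive matrix, and whether their basal or luminal bias is the same in both.

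Wells with more than 2000 counts were used. A well was called basal when Krt5, Krt14 and Krt17 together reached 5 per 10000 counts, and non-basal when they stayed under 2 per 10000. There were 73 and 85 basal and 128 and 103 non-basal wells in Collagen I plates 1 and 3, against 87, 93 and 85 basal and 174, 136 and 160 non-basal wells in BME plates 1 to 3. The remaining 31 and 25 wells of Collagen I and 33, 41 and 38 wells of BME lay between the cuts and enter only the values for all wells. None of the 10 regulators was used to choose wells. Levels are given as CPM, counts per 1000000 counts of the summed wells of a plate. In such sums fewer cells with a transcript and less of it per cell cannot be told apart. Each molecule gives a single 3' count, so gene length does not enter.

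Collagen I wells were shallower. The median was 5863 and 3645 counts per well in Collagen I, against 24881 to 32566 counts in BME, and the kept wells of a plate summed to 946515 to 1560656 counts in Collagen I, against 9033605 to 10850095 counts in BME. A basal well held a median of 10.0 and 5 keratin counts in Collagen I, against 39.1 to 49.1 in BME, so in shallow wells a few counts decided the class. By the deposited names, the BME plates were run on 1 flow cell and the Collagen I plates on another one each, so matrix and sequencing run cannot be told apart. The labels do not say whether the plates of a matrix came from separate cultures, so p-values measure only the spread between plates, which may be technical. Of the epithelial markers, Epcam had 630 and 665 CPM in Collagen I, against 304, 353 and 304 CPM in BME, and Cdh1 had 128 and 133 CPM in Collagen I, against 220, 186 and 181 CPM in BME, while immune markers were at or near 0 in all plates. The luminal keratin Krt8 had 1698 and 1699 CPM in basal wells against 1066 and 1087 CPM in non-basal wells of Collagen I, and 340, 327 and 387 CPM in basal wells against 381, 332 and 327 CPM in non-basal wells of BME, so it did not separate the classes in the same direction in every plate. Krt18, its partner, had 687 and 814 CPM in basal wells against 737 and 834 CPM in non-basal wells of Collagen I, and 78.7, 116 and 142 CPM in basal wells against 232, 265 and 238 CPM in non-basal wells of BME. Luminal Cd14 was lower in basal wells of every plate (263 and 257 against 660 and 669 CPM in Collagen I, 345 to 525 against 1441 to 1796 CPM in BME). The myoepithelial genes Myh11, Cnn1 and Oxtr were at or near 0, and Acta2 reached 21.6 CPM at most, so the basal wells are defined by keratins and not by a contractile program.

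Several other gene groups differed between the matrices. The summed level of 5 dissociation stress genes was 822 and 1325 CPM in Collagen I, against 199 to 282 CPM in BME, that of 5 fibroblast genes was 108 and 354 CPM in Collagen I, against 27.1 to 34.4 CPM in BME, and that of 6 cycling genes was 533 and 616 CPM in Collagen I, against 1093 to 1335 CPM in BME. Of the fibroblast genes, Col1a1 had 79.5 and 105 CPM in Collagen I, against 4.52 to 7.08 CPM in BME, whereas Col1a2, Col3a1 and Dcn were raised in Collagen I plate 3 (120, 38 and 65.5 CPM) and had 0.64, 0.64 and 2.56 CPM in plate 1. Pdgfra had 24.3 and 26.4 CPM in Collagen I, against 17.3 to 24.7 CPM in BME. Mitochondrial transcripts took 9.15% and 9.94% of counts in Collagen I, against 13.9% to 17.7% in BME, and the ribosomal precursor Rn45s 7.57% and 8.68% in Collagen I, against 1.64% to 2.77% in BME. With ribosomal and mitochondrial genes left out, the number of regulators called was the same in each comparison. Each matrix comparison below was repeated without wells rich in stress, fibroblast or cycling transcripts, the stress and fibroblast repeats being chosen after the data were seen. The values that changed a call of a regulator in basal or non-basal wells are given. No repeat left out wells rich in Rn45s, and wells with many mitochondrial counts were left out only under the study's limits.

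Across all wells, 3 of the 10 regulators were higher in Collagen I (Id4, Sox9 and Gata3) and 5 were lower (Trp63, Elf5, Cited1, Foxa1 and Ehf), by edgeR's quasi-likelihood test at an adjusted p under 0.05. The background in this comparison was broad, as 15.5% of the 11892 tested genes were higher and 16.9% were lower. Their median log2 fold change was -0.08, against -0.04 over all tested genes. The order of the regulators by level was led by Sox9 in both matrices (1813 to 2028 CPM in Collagen I, 622 to 717 CPM in BME). In BME it was followed by Foxa1, Ehf, Trp63, Cited1, Id4, Elf3, Elf5, Esr1 and Gata3, and among these neighbours the ranges over plates overlapped for Cited1 and Id4 and for Esr1 and Gata3. In Collagen I it was followed by Foxa1 (82.4 and 124 CPM), Id4 (64.5 and 94.9 CPM), Ehf, Trp63 and Elf3, where the ranges of Foxa1 and Id4 and of Trp63 and Elf3 overlapped, while Gata3, Cited1, Esr1 and Elf5 lay under 10 CPM.

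**Figure D1:**
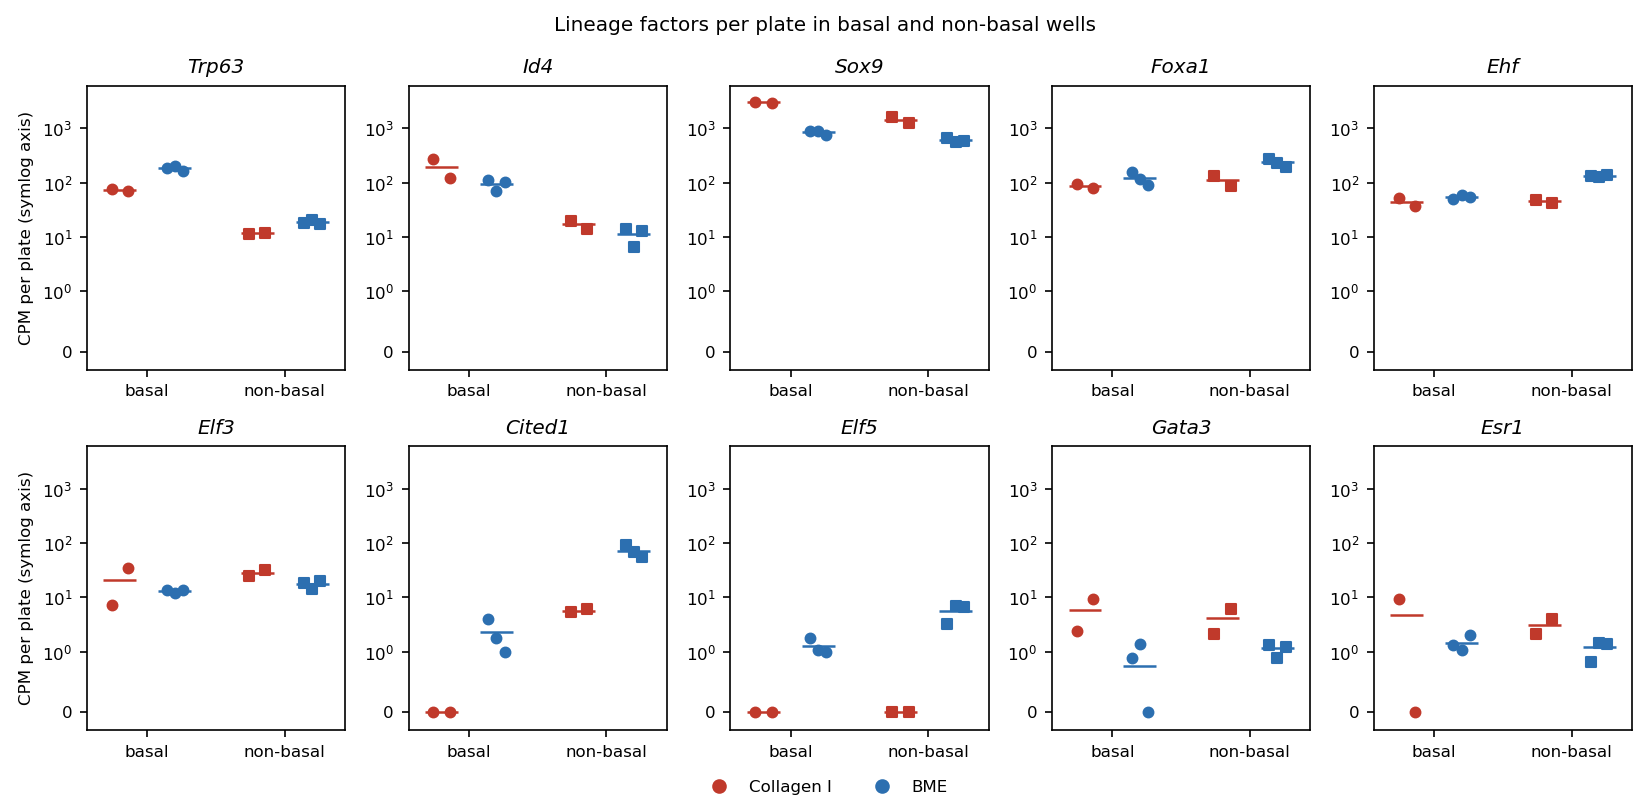
Level of each regulator (CPM, symlog axis, linear below 1) in basal wells (circles) and non-basal wells (squares) of each plate, with Collagen I in red and BME in blue; lines are the means over plates. Sox9 is the most abundant in every group, Trp63 and Id4 are higher in basal wells of both matrices, and Cited1 falls to 5.24 and 6.02 CPM in non-basal wells of Collagen I, against 54.4 to 91.5 CPM in BME.

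The regulators lie on 8 chromosomes (GENCODE vM21, GRCm38). Trp63 spans chr16:25683763-25892102, Id4 chr13:48261228-48266026, Sox9 chr11:112782224-112787760 and Esr1 chr10:4611593-5005614, all on the plus strand. Foxa1 spans chr12:57540628-57546916, Cited1 chrX:102247381-102252181, Elf3 chr1:135253575-135258568 and Gata3 chr2:9857078-9890034, all on the minus strand. Ehf (chr2:103263433-103303278, minus strand) and Elf5 (chr2:103411688-103450989, plus strand) are ETS genes that lie 108409 bases apart with 0 protein-coding genes between them. Trp63, Id4, Gata3 and Elf3 overlap other annotated genes. The partners lie on the opposite strand for Id4 (A330033J07Rik and Gm49291) and Elf3 (Gm26642) and on both strands for Trp63 (Gm24928 and Gm27005) and Gata3 (Gm13256, 4930412O13Rik and 9230102O04Rik), and how the authors' counting split such reads was not tested.

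The 250 bases before the start sites of Id4 and Cited1 are shown because these regulators moved in opposite directions, Id4 being higher in basal wells and Cited1 lower in non-basal wells of Collagen I. They come from the RefSeq promoter table of GRCm38.p6, in which 7 of the 10 regulators had an entry. Capitals mark GGAAG or its reverse complement CTTCC, the core that ETS factors such as Elf5, Ehf and Elf3 bind, and TATAAA, the TATA box, searched on both strands. The window of Id4 is chr13:48260866-48261115 on the plus strand, and that of Cited1, before the outermost of its start sites, is chrX:102252182-102252431 on the minus strand.
Id4: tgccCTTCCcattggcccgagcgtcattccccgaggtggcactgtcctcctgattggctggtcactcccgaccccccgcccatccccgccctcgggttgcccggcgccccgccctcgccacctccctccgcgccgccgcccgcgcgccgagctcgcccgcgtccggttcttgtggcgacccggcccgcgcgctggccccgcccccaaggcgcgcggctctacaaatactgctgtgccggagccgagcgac
Cited1: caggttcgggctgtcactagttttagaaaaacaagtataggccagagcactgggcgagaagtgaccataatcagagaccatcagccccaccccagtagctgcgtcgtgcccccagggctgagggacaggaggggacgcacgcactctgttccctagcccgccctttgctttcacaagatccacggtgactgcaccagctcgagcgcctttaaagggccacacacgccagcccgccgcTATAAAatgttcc

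The Id4 window is 75.6% G and C and holds an ETS core, while the Cited1 window is 58% G and C and holds TATAAA near its end. The windows before the other start sites of Cited1 hold 2 and 1 ETS cores, so the genes do not differ in this motif across all start sites. The ETS core occurs in 64.1% and TATAAA in 12.4% of all 32851 RefSeq promoter windows of this length, so the ETS core is common. The forkhead motif TGTTTA, which occurs in 12.03% of all windows, had no match in either promoter. Nor was there a match to the motif that SOX factors bind, ACAATG, which 10.7% of all windows hold. The motif of zinc finger factors such as Gata3, AGATAA, is held by 9.99% of all windows and by neither of these promoters. These matches describe letters only.

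Trp63, which encodes p63, was with Id4 the most basal of the regulators in BME, and its level was lower in Collagen I. In basal wells it had 77.5 and 71.1 CPM in Collagen I, against 186, 202 and 163 CPM in BME, and in non-basal wells 11.5 and 12 CPM in Collagen I, against 17.7, 20.4 and 17.3 CPM in BME. The plates of the matrices did not overlap in either class. In basal wells its log2 fold change, Collagen I over BME, was -1.26 (SE 0.22, adjusted p = 0.000398 by edgeR), and in non-basal wells it was -0.62 (SE 0.34, adjusted p = 0.19), which did not pass the test. The counts behind Collagen I were small, with 33 and 23 Trp63 counts in basal wells, against 415, 578 and 490 counts in BME. Without stressed wells the fold change in basal wells was -1.71 (adjusted p = 0.00552), without cycling wells -1.50 (adjusted p = 2.72e-05) and without wells with fibroblast transcripts -1.28 (adjusted p = 0.000475). In non-basal wells Trp63 passed without cycling wells (-1.16, adjusted p = 0.0468).

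Id4, an inhibitor of helix-loop-helix factors known from basal mammary cells, moved the other way. In basal wells it had 270 and 124 CPM in Collagen I, against 110, 70.1 and 105 CPM in BME, and in non-basal wells 19.9 and 14 CPM in Collagen I, against 14, 6.44 and 12.9 CPM in BME. Both Collagen I plates lay above the BME plates in basal wells, with plate 1 far above plate 3. The log2 fold change in basal wells was 1.12 (SE 0.26, adjusted p = 0.0046 by edgeR), and in non-basal wells 0.69 (SE 0.43, adjusted p = 0.245). In non-basal wells Id4 passed without cycling wells (1.74, adjusted p = 0.0113 by edgeR) and without the deepest 5% of wells (1.53, adjusted p = 0.0121). It also passed under the study's limits on mitochondrial counts and number of genes (1.37, adjusted p = 0.0161). The rise in basal wells depended on plate 1, since without it the value was 0.46 (adjusted p = 0.456), and with wells thinned to 2000 counts it was 0.88 (adjusted p = 0.0662). Over all wells the log2 fold change was 1.15 (SE 0.19, adjusted p = 0.00064), and 0.85 without plate 1 (adjusted p = 0.0586). Among the relatives of Id4, Id3 was lower in basal wells (log2 fold change -2.28) and in non-basal wells (-3.04) of Collagen I. Id1 was lower in non-basal wells (-0.86) and had -0.70 in basal wells (adjusted p = 0.108 by edgeR), while Id2 did not pass the test in either class.

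Sox9, a regulator of progenitor cells in both mammary lineages, was higher in Collagen I in both classes of wells. In basal wells it had 3079 and 2954 CPM in Collagen I, against 878, 894 and 754 CPM in BME, and in non-basal wells 1615 and 1262 CPM in Collagen I, against 661, 560 and 575 CPM in BME. No plate of BME reached a plate of Collagen I in either class. The log2 fold change was 1.88 in basal wells (SE 0.19, adjusted p = 4.79e-07 by edgeR) and 1.30 in non-basal wells (SE 0.16, adjusted p = 1.4e-05). Sox9 passed the test in both classes under every alternative run. In single basal wells the median was 28.5 and 21.3 Sox9 counts per 10000 in Collagen I, against 7.85, 7.83 and 6.94 in BME, so the typical well differed and not only a few. The highest basal wells held 95.8 and 83.6 per 10000 in Collagen I, against 36.3, 26.4 and 37.6 in BME.

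In basal wells, 2 of the 6 tested regulators were thus higher in Collagen I and 1 was lower, where 10.1% of the 10335 tested genes were higher and 8.2% were lower. Foxa1, Ehf and Elf3 did not pass this test, and Elf5, Cited1, Gata3 and Esr1 had too few counts in basal wells to be tested. In non-basal wells, 1 of 10 was higher (Sox9) and 4 were lower (Elf5, Cited1, Foxa1 and Ehf), where 14% of the 11360 tested genes were higher and 14% were lower.

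**Figure D2:**
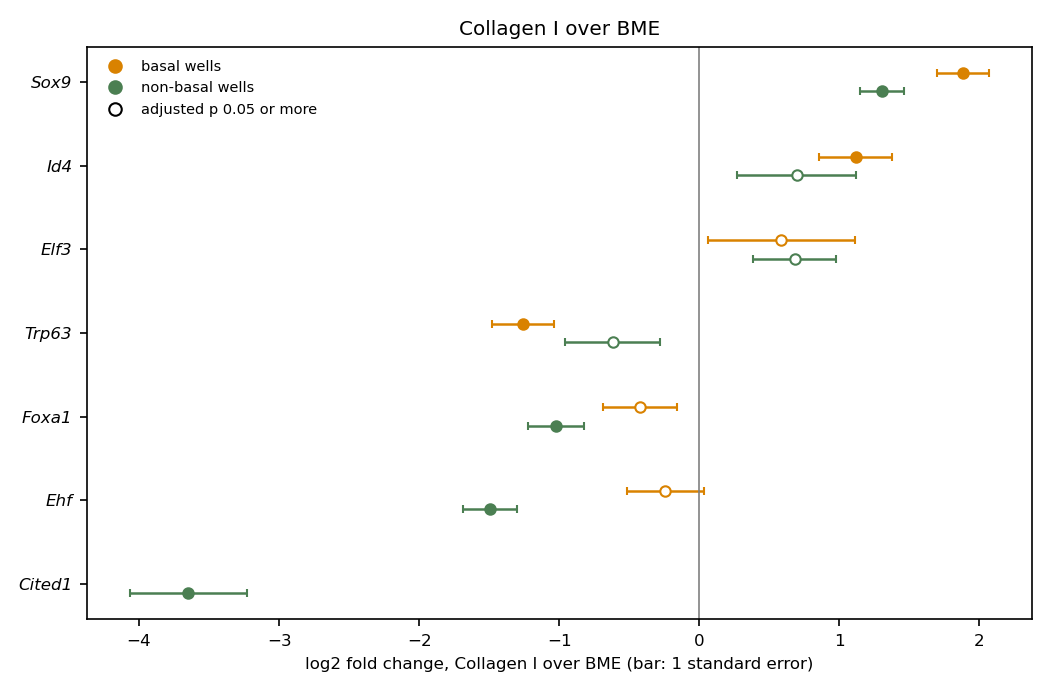
Log2 fold change of 7 regulators, Collagen I over BME, in basal wells (orange) and non-basal wells (green); bars are 1 standard error and open points did not pass an adjusted p of 0.05. Sox9 is positive in both classes (1.88 and 1.30), Trp63 and Id4 are filled in basal wells and open in non-basal wells, where both passed once cycling wells were left out, and Foxa1 and Ehf are filled in non-basal wells and open in basal wells. Cited1 is filled in non-basal wells and was not tested in basal wells.

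Cited1, a coactivator that binds the estrogen receptor, had the largest fall that could be measured. In non-basal wells it had 5.24 and 6.02 CPM in Collagen I, against 91.5, 67.2 and 54.4 CPM in BME, and in basal wells 0 and 0 counts in Collagen I, against 9, 5 and 3 counts in BME. The non-basal values rest on 5 and 3 counts in Collagen I, against 549, 376 and 352 counts in BME. The log2 fold change in non-basal wells was -3.65 (SE 0.42, adjusted p = 7.13e-06 by edgeR), and it stayed between -4.83 and -3.28 under all 21 alternatives. In basal wells the 0 counts allow up to 4.01 CPM (3 counts over both plates), which lies above the 2.10 CPM of BME, so a difference there was not detectable at this depth. Cited1 was unevenly spread in BME, where 35.6%, 40.4% and 36.3% of non-basal wells held any count and a single well held up to 78.7 counts.

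Elf5, which directs luminal progenitors toward milk secretion, was not counted in Collagen I. It had 0 counts in both Collagen I plates, against 28, 55 and 59 counts (3.10, 5.94 and 5.44 CPM) in BME. With 3 counts over both Collagen I plates as the limit, Elf5 was at least 4.07-fold lower in Collagen I over all wells (adjusted p = 0.00685 by edgeR) and at least 2.65-fold lower in non-basal wells (adjusted p = 0.0191). Over all wells the call was lost without Collagen I plate 1 (adjusted p = 0.108) and without stressed wells (adjusted p = 0.0968). In non-basal wells it was lost without Collagen I plate 1 (adjusted p = 0.227), without plate 3 (adjusted p = 0.0876) and without stressed wells (adjusted p = 0.158). Limits and intervals cover counting error only.

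Foxa1, a pioneer factor that opens chromatin for the estrogen receptor, was lower in non-basal wells of Collagen I. It had 131 and 88.3 CPM in non-basal wells of Collagen I, against 276, 234 and 193 CPM in BME, without overlap. In basal wells it had 94 and 80.4 CPM in Collagen I, against 158, 114 and 91.5 CPM in BME, and these ranges overlapped. The log2 fold change was -1.02 in non-basal wells (SE 0.20, adjusted p = 0.00119 by edgeR) and -0.42 in basal wells (SE 0.26, adjusted p = 0.286). Over all wells it was -0.93 (SE 0.20, adjusted p = 0.00331), and -0.71 without Collagen I plate 3 (adjusted p = 0.0828).

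Ehf and Elf3 are ETS factors of epithelial cells. Ehf had 48.2 and 42.1 CPM in non-basal wells of Collagen I, against 131, 127 and 139 CPM in BME, and 51.7 and 37.1 CPM in basal wells of Collagen I, against 50.1, 58.8 and 55.4 CPM in BME. The ranges overlapped in basal wells and lay apart in non-basal wells. The log2 fold change was -1.50 in non-basal wells (SE 0.19, adjusted p = 2.33e-05 by edgeR) and -0.24 in basal wells (SE 0.27, adjusted p = 0.591). Elf3 did not pass the test in either class. It had 24.1 and 32.1 CPM in non-basal wells of Collagen I, against 18.2, 14.3 and 19.5 CPM in BME (log2 fold change 0.68, SE 0.30, adjusted p = 0.102 by edgeR). In basal wells it had 7.05 and 34 CPM in Collagen I, against 13.9, 11.9 and 13.3 CPM in BME, so that the Collagen I plates lay on either side of BME. Over all wells its log2 fold change was 0.76 (SE 0.30, adjusted p = 0.0701 by edgeR). There Elf3 passed under 5 of 19 alternatives, whose values lay between 0.15 and 1.32. Among these were DESeq2 (0.82, adjusted p = 0.0482) and, by edgeR, the fit without BME plate 1 (0.80, adjusted p = 0.0226).

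Gata3, a factor of the luminal layer, and Esr1, which marks its hormone-sensing cells, were close to absent. Over all wells Gata3 had 3 and 7 counts in Collagen I, against 10, 9 and 9 counts in BME, and Esr1 had 6 and 2 counts in Collagen I, against 8, 12 and 16 counts in BME. Gata3 passed the test over all wells (log2 fold change 2.10, SE 0.70, adjusted p = 0.0368 by edgeR), but without Collagen I plate 3 (0.98, adjusted p = 0.501) without BME plate 3 (2.01, adjusted p = 0.0552) or in wells with more than 4000 counts (1.39, adjusted p = 0.213) it did not. Esr1 had 1.36 (SE 0.65, adjusted p = 0.131). From 10 estrogen receptor targets, 2 of 5 tested were higher and 2 lower in non-basal wells of Collagen I, where 14% of all tested genes were higher and 14% were lower, namely Igfbp4 (2.54) and Rara (1.92) against Prlr (-1.54) and Xbp1 (-1.10), and the progesterone receptor gene Pgr was too low to be tested. Rara, Prlr and Xbp1 are also in the list of luminal regulators below.

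Because an empty well can mean low depth, shares of wells were compared after each well was thinned to 2000 counts. Sox9 was then found in 94.1% ± 3.54 of wells in Collagen I and 70.9% ± 3.33 in BME (mean ± SD over 2 and 3 plates). Id4 was found in 12.3% ± 3.39 and 6.17% ± 2.37, Trp63 in 6.75% ± 0.41 and 13.8% ± 1.41, Foxa1 in 16.7% ± 3.76 and 28.9% ± 5.00, Ehf in 9.16% ± 1.67 and 18% ± 2.83, and Cited1 in 0.45% ± 0.03 and 5.31% ± 0.63 of wells, in Collagen I and in BME. For each of the 10 regulators every Collagen I plate lay on the same side of every BME plate, so this separation is not particular to the 6 named here. With 3 plates against 2 an exact two-sided permutation test cannot go below p = 0.1. By this exact permutation test each of these 6 had p = 0.1 (adjusted p = 0.167 over the 10 regulators). Elf5, Gata3, Esr1 and Elf3 had p = 0.2 by the same exact permutation test (adjusted p = 0.2). The shares therefore do not pass the test. Within basal wells, Trp63 was found in 12.3% and 12.9% of wells in Collagen I, against 37.9%, 31.2% and 31.8% in BME, at this depth.

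**Figure D3:**
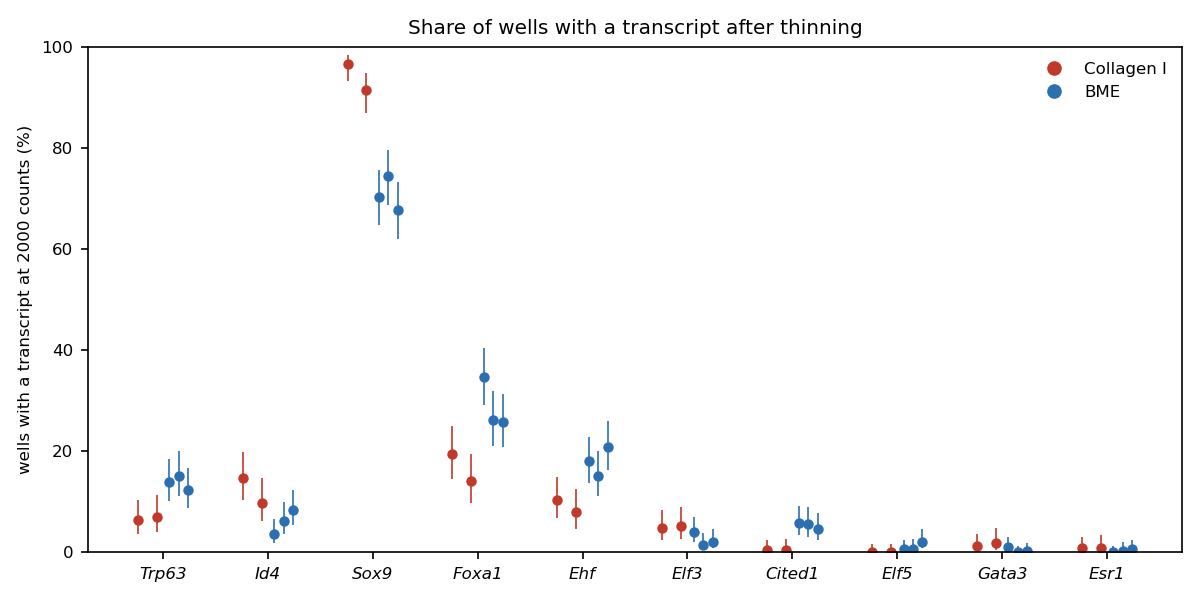
Share of wells with at least 1 transcript of each regulator (%) after thinning each well to 2000 counts, in each plate of Collagen I (red) and BME (blue); bars are exact 95% binomial intervals, which cover counting error only. Sox9 is found in more wells of Collagen I (94.1% against 70.9% on average), whereas Foxa1 (16.7% against 28.9%) and Ehf (9.16% against 18%) are found in fewer.

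The lineage bias of each regulator was then compared between basal and non-basal wells of the same plate. In BME, 3 regulators were higher in basal wells (Trp63, Id4 and Sox9) and 4 were lower (Elf5, Cited1, Foxa1 and Ehf), where 17.7% of the 11009 tested genes were higher and 17.6% were lower. Trp63 was 10.5-, 9.92- and 9.43-fold higher in basal wells of BME plates 1 to 3 (log2 fold change 3.29, SE 0.10, adjusted p = 1.05e-18 by edgeR with the plate as a block). Id4 had 3.08 (SE 0.13) and was 7.82-, 10.9- and 8.13-fold higher in the same plates, above Trp63 in plate 2. Cited1 had -5.03 (SE 0.21), Elf5 -2.14 (SE 0.48), Ehf -1.29 (SE 0.09) and Foxa1 -0.99 (SE 0.08). Elf3 had -0.43 (SE 0.20, adjusted p = 0.0971 by edgeR), which did not pass the test. It passed under the study's limits on mitochondrial counts and number of genes (-0.57, adjusted p = 0.032) and with the basal cut at 10 per 10000 (-0.56, adjusted p = 0.0424). With wells thinned, Sox9 (0.32, adjusted p = 0.0617) and Ehf (-0.64, adjusted p = 0.157) did not pass.

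In Collagen I, the same 3 regulators were higher in basal wells and none was lower, where 4.28% of the tested genes were higher and 3.56% were lower, at far fewer counts than in BME. The log2 fold change was 2.60 for Trp63 (SE 0.33), 3.52 for Id4 (SE 0.26) and 1.00 for Sox9 (SE 0.09), and with wells thinned Trp63 had 1.32 (adjusted p = 0.233 by edgeR). No luminal regulator passed the test, with -0.43 for Foxa1 (SE 0.21, adjusted p = 0.259 by edgeR), -0.07 for Ehf (SE 0.29, adjusted p = 0.942) and -0.68 for Elf3 (SE 0.46, adjusted p = 0.461). Cited1 had 0 counts in basal wells, against 5 and 3 counts in non-basal wells (adjusted p = 0.11).

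The difference of the basal effect, Collagen I minus BME, passed the test for Ehf and Sox9, both positive, where 1.14% of the tested genes were higher and 2.53% were lower. The ratio of basal over non-basal Ehf was 1.07 and 0.88 in Collagen I plates 1 and 3, against 0.38, 0.47 and 0.40 in BME plates 1 to 3, so that the luminal bias seen in BME was not seen in Collagen I. The difference on the log2 scale was 1.21 (SE 0.32, adjusted p = 0.029 by edgeR). For Sox9 the ratio was 1.91 and 2.34 in Collagen I, against 1.33, 1.60 and 1.31 in BME, with a difference of 0.52 (SE 0.12, adjusted p = 0.00851). Foxa1 (0.56, SE 0.23, adjusted p = 0.22) and Trp63 (-0.69, SE 0.40, adjusted p = 0.467) did not pass, although their ratios did not overlap between matrices, and neither did Id4 (0.44, SE 0.33, adjusted p = 0.593). Ehf in basal wells of Collagen I rests on 22 and 12 counts. Leaving out some of the plates or wells ended these calls. Sox9 passed under 15 of 21 alternatives and Ehf under 11 of 21. Without BME plate 1, BME plate 3 and Collagen I plate 3 in turn, the adjusted p was 0.0611, 0.0592 and 0.0762 for Ehf and 0.0539, 0.0561 and 0.136 for Sox9, and without Collagen I plate 1 it was 0.44 for Ehf. Without stressed wells Ehf had 0.40 (adjusted p = 0.873 by edgeR), and with wells thinned Ehf had 0.75 (adjusted p = 0.696) and Sox9 0.47 (adjusted p = 0.234).

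**Figure D4:**
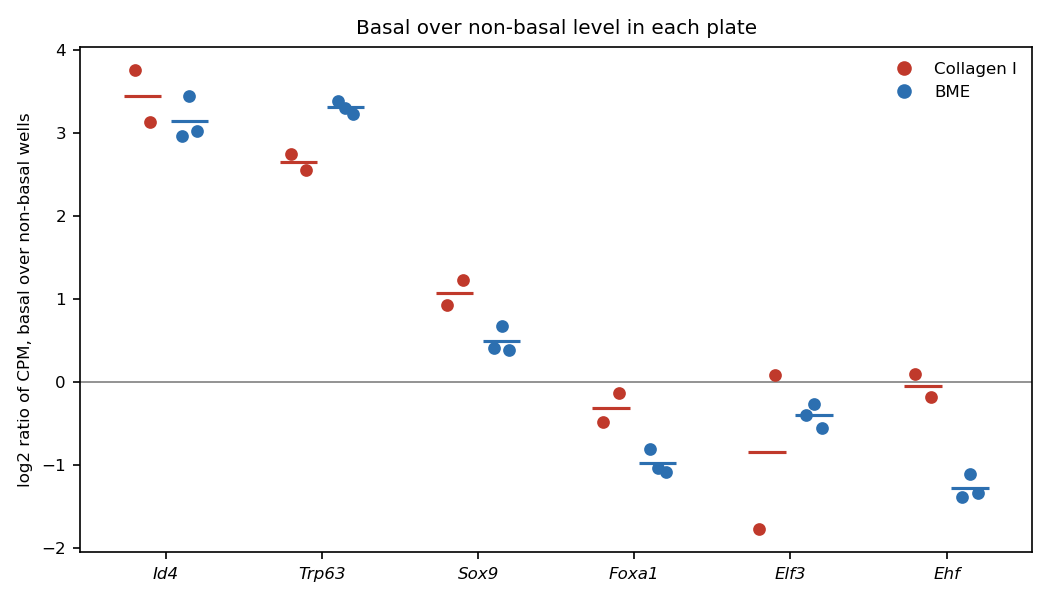
Log2 ratio of the level in basal over non-basal wells for 6 regulators in each plate of Collagen I (red) and BME (blue); lines are means and 0 means equal levels. Id4 and Trp63 lie far above 0 in both matrices, and Ehf lies near 0 in Collagen I (0.10 and -0.18) but between -1.39 and -1.10 in BME.

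Other genes of these programs gave a mixed picture. Of 13 genes listed as targets of p63 in epithelium, 12 were higher in basal than in non-basal wells of BME and 11 in those of Collagen I, where 17.7% and 4.28% of all tested genes were higher. Between the matrices, 7 of the 13 were higher in basal wells of Collagen I and 0 were lower, where 10.1% of all tested genes were higher and 8.2% were lower, while Trp63 itself was lower there. The largest changes were in integrin alpha 3 (Itga3, log2 fold change 1.5), the growth factor binding protein Igfbp3 (1.04) and the laminin chains Lamb3 (1.28) and Lama3 (1.02), and the median of the 13 was 0.82, against -0.06 over all tested genes. In non-basal wells of Collagen I, 4 of the 13 were higher and 1 lower, where 14% of tested genes were higher and 14% lower. The higher ones there were Itga3 (1.57), Itga6 (1.55), Cdh3 (1.19) and Itgb4 (0.90), and the lower one was Perp (-1.08). Col17a1, a hemidesmosome collagen, had 508 and 411 CPM in basal wells of Collagen I, against 381, 425 and 315 CPM in BME (0.34, adjusted p = 0.202 by edgeR).

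Of 12 other basal regulators, 9 could be tested within the plates, and all 9 were higher in basal wells of BME, against 17.7% of all tested genes, led by Snai2 (4.17), Trp73 (3.96), Mef2c (2.32) and Bcl11b (2.02). In Collagen I, 2 of the 9 were higher in basal wells, against 4.28% of all tested genes, Snai2 (3.68) and Mef2c (2.42). The nearly uncounted Bcl11b, Trp73 and Sox11 had 6.37 (SE 2.97), 4.64 (SE 4.02) and 3.46 (SE 1.34). Tbx2, Foxc1, Nfib and Tcf7l1 had 0.52, 0.23, -0.08 and -0.33. The median of the 9 was 2.42 in Collagen I, with the nearly uncounted genes above it, and 1.58 in BME. The number of calls alone therefore does not show whether the bias was lost. In the test of the difference of the basal effect, 2 of the 9 were lower and 0 higher in Collagen I. These were Tcf7l1 (-0.90, adjusted p = 0.0422 by edgeR) and Nfib (-0.42, adjusted p = 0.0279). Of all tested genes, 2.53% were lower and 1.14% higher in this test. Mef2c, a MADS-box factor, was also the member of this list that was higher in basal wells of Collagen I than of BME, with 54.1 and 37.1 CPM in Collagen I, against 4.02, 3.85 and 5.34 CPM in BME (log2 fold change 3.40, SE 0.42). These values rest on 23 and 12 counts in Collagen I, against 9, 11 and 16 counts in BME. Mef2c was higher in non-basal wells of Collagen I too (3.31, SE 0.71). Trp73, the relative of Trp63, had 0 and 1 counts in basal wells of Collagen I, against 38, 29 and 41 counts in BME (adjusted p = 0.0313 by edgeR). Snai2, an EMT factor that accompanies p63 in basal cells, had 108 and 71.1 CPM in Collagen I, against 106, 119 and 100 CPM in BME (-0.21, SE 0.22, adjusted p = 0.557).

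Of 26 other luminal regulators, 22 were tested in non-basal wells, and 6 were higher and 2 lower in Collagen I, where 14% of all tested genes were higher and 14% were lower. The AP-2 factor gene Tfap2c (2.40), the retinoic acid receptor gene Rara (1.92), the B-cell factor gene Bcl11a (1.73) and the Notch target Hes1 (1.42) rose most, whereas the prolactin receptor gene Prlr (-1.54) and Xbp1 (-1.10), a factor of the secretory pathway, fell. In basal wells 5 of the 22 were higher and 0 were lower, where 10.1% of all tested genes were higher and 8.2% were lower. Within BME, 6 of the 22 were higher and 7 lower in basal than in non-basal wells, against 17.7% and 17.6% of all tested genes. Of the genes named as rising, Tfap2c (1.05), Bcl11a (1.08) and Hes1 (0.23) were higher in basal wells of BME. Rara (0.07) did not pass there, and Prlr (-0.65) and Xbp1 (-1.19) were lower in basal wells. Of the milk genes that Elf5 is known to activate or accompany, only Csn1s1 and Csn3 could be tested, and in non-basal wells of Collagen I Csn3 was higher, with 918 and 1407 CPM against 26.7, 32 and 17 CPM in BME, while Csn1s1 was lower (-1.47, SE 0.25).

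Finally, the regulators were placed by the genes whose levels varied most like theirs from well to well, as the mean of the within-plate Pearson correlation over 5 plates among 5159 genes. These values are descriptive, since wells of a plate share a library and depth. Trp63 varied most like Col17a1 (0.55), Sparc (0.52) and Fam101b (0.52), and Id4 like Sparc (0.47), Krt5 (0.44) and Col17a1 (0.43). Sox9 was closest to App (0.34), Vegfa (0.32) and Cd200 (0.32). Foxa1 was closest to Wfdc2 (0.29), Trf (0.27) and Cd14 (0.25), Ehf to Scara5 (0.30), Cd14 (0.27) and Xbp1 (0.25), and Cited1 to Noxo1 (0.28), Slc12a2 (0.25) and Itih2 (0.24). For Elf3 (Mfsd6, Xbp1 and Ehf), Gata3 (Prtn3, Slfn9 and Frmd7) and Esr1 (Rab24, Exosc5 and Klf9) no gene exceeded 0.16, and Elf5 gave no value. Trp63 and Id4 varied together in each plate (0.23 and 0.12 in Collagen I, 0.33, 0.27 and 0.33 in BME). Cited1 and Foxa1 had 0.28, 0.29 and 0.22 in BME, against -0.07 and -0.04 in Collagen I, where Cited1 was nearly uncounted.

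In BME, Foxa1 and Ehf were often counted in the same basal well as Trp63, and Elf3 and Cited1 less often. Their shares over all basal wells of BME plates 1 to 3 had the same order. Foxa1 was counted in 72.4%, 73.1% and 68.2% of these wells and Ehf in 55.2%, 60.2% and 60%. Elf3 was counted in 25.3%, 20.4% and 20% and Cited1 in 10.3%, 5.38% and 3.53%. Of the basal wells with a Trp63 transcript, 9 of 19 and 4 of 20 also held Foxa1 in Collagen I, against 55 of 73, 60 of 84 and 54 of 71 in BME. Ehf was held by 7 of 19 and 0 of 20 such wells in Collagen I, against 40 of 73, 51 of 84 and 44 of 71 in BME. Elf3 was held by 1 of 19 and 2 of 20 in Collagen I, against 19 of 73, 17 of 84 and 16 of 71 in BME. For Cited1 it was 0 of 19 and 0 of 20 in Collagen I, against 7 of 73, 4 of 84 and 3 of 71 in BME. Depth differed between the matrices, with a median of 5659 and 3599 counts in these wells of Collagen I, against 21805, 31371 and 35187 counts in BME, so these shares were not compared between them. Basal wells without a Trp63 transcript were shallower in every plate. In BME, 8 of 14, 8 of 9 and 4 of 14 of them held Foxa1, and 8 of 14, 5 of 9 and 7 of 14 held Ehf. In Collagen I, 19 of 54 and 15 of 65 held Foxa1, and 8 of 54 and 9 of 65 held Ehf. Doublets were not called, and their part in wells that held both kinds of regulator was not tested.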

How the data were processed

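Transcripts of single cells from 5 plates were read from the expected counts that the authors deposited for each plate, with 384 wells each. These are numbers of distinct UMIs corrected by the authors for saturation, not normalized between wells. UMIs of 6 bases (4096 sequences) gave back whole UMI numbers for 99.0% to 99.9% of values within 0.0105, although the labels give a UMI length of 4 bases. The lowest values pass for both lengths, and no share was computed for 4 bases, so this share alone does not decide the length. Reads were aligned with BWA to mm10, per the submitters' processing notes, which name no versions. The 88 ERCC spike-in rows were left out.

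Wells were summed per plate and class, sums were rounded, and filterByExpr removed weakly counted genes. Sums were compared with edgeR 4.0.16 (R 4.3.3, TMM, quasi-likelihood test, Benjamini-Hochberg adjustment over all tested genes, threshold 0.05). Basal and non-basal sums entered a single fit that includes a plate term. Standard errors were derived from F, as |log2 fold change| over its square root. The scripts were tested on simulated data. The study compared single cells with a Wilcoxon test, which was not followed because wells of a plate are not replicates. Thinning, shares and correlations were computed with Python 3.11.15, numpy 2.4.6, pandas 2.3.3 and scipy 1.17.1. Doublets were not called; instead, the deepest 5% of wells were dropped as an alternative.

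The 10 regulators and the gene lists were chosen with earlier results of these data known, and 1 gene of the list of p63 targets is not reported here. All regulators are named, as are up to 4 genes per list with the largest change in a comparison and the 3 genes most like each regulator. Col17a1, Snai2 and Trp73 between the matrices, and the relatives of Id4, were named after their values were seen. So were the basal regulators that did not pass within Collagen I. Alternatives were DESeq2 1.42.0, RLE size factors, abundant ribosomal and mitochondrial genes left out, all genes kept, the correction undone, thinned wells, minimum counts of 500 and 4000, the study's limits (under 10% mitochondrial counts, fewer than 8000 genes), cycling wells left out, stricter basal cuts (10 per 10000, or at least 3 keratin counts), the replicate block, and each plate left out. The mitochondrial limit counted only genes with the name prefix mt-. With the limit on genes, 286 of 294 wells of BME plate 1 were kept. Mitochondrial transcripts took 17.7% of counts there, so the prefix covered only part of them. Leaving out wells with 5 per 10000 or more of stress or fibroblast transcripts was added after the data were seen.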

Additional observations from a re-analysis of the deposited data

Results flagged for a closer look

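The difference of the basal effect between the matrices passed the test of the difference itself for 2 of the regulators and 10 genes of the lists, which is why they are given again. Over all tested genes, 1.14% were higher and 2.53% were lower in this test, and the lists held 9 tested basal regulators, 22 luminal regulators, 13 p63 targets, 5 estrogen receptor targets, 2 milk genes and 3 genes of the Id family, some of them in more than 1 list. The calls for Sox9 and Ehf were lost with wells thinned and with the plate block dropped. Sox9 had a basal over non-basal log2 fold change of 1.00 in Collagen I and 0.47 in BME, with a difference of 0.52, and Ehf had -0.07 in Collagen I and -1.29 in BME, with a difference of 1.21. Among the p63 targets, Lamb3 had a difference of 0.93 and Itga6 of -0.80. Among the other basal regulators, Tcf7l1 had -0.90 and Nfib -0.42. Among the other luminal regulators, Lmo4 had 0.60, Cebpb -0.50, Tfap2c -1.22 and Bcl11a -1.85. The estrogen receptor target Igfbp4 had -2.26 (basal over non-basal -0.04 in Collagen I and 2.22 in BME), and the milk gene Csn3 had 2.19 (-2.13 in Collagen I and -4.32 in BME). Groups of 2 and 3 plates are too small for a test of single outlying plates.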

How the results depend on the processing

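Of the 10 regulators, 8 were called over all wells, 3 in basal wells, 5 in non-basal wells, 7 between classes in BME, 3 between classes in Collagen I and 2 for the difference of the basal effect. The counts between the matrices and between classes in Collagen I stayed within 1.5 times under every alternative run. With wells thinned to 2000 counts, where a single keratin count makes a well basal, 4 were called between classes in BME and 0 for the difference. The count for the difference was 1 with more than 4000 counts per well, without the top 5% of wells, without stressed wells, without wells with fibroblast transcripts or with the basal cut at 10, and 0 to 2 when a plate was left out. A comparison left with 1 Collagen I plate assumes that it varies like the BME plates. The count for the difference was 0 with no replicate block (plate term dropped), which changed neither count between classes. Using the replicate number of the labels as a block gave 8, 3 and 5 calls between the matrices. Deviations of same-numbered plates had correlations of -0.03 to 0.02 over 2 pairs, plates 1 and 3. The deviations of the 2 Collagen I plates mirror each other, so this cannot decide whether the numbers pair the plates. Without thinning, the share of wells, Collagen I minus BME, reversed for Id4 (-8.38 percentage points), Gata3 (-0.66), Esr1 (-2.26), Sox9 (-0.56) and Elf3 (-19.0), where BME wells were deeper. Among single regulators and comparisons, 32 values lost and 11 gained a call.

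Over all genes, calls over all wells numbered 3848, against 1805 with thinned wells, 1563 without stressed wells (86 and 55 wells remained in Collagen I), and 1776 and 2100 without Collagen I plates 1 and 3. In basal wells they numbered 1891, against 780, 785, 778 and 696 under the same settings and 1237 without BME plate 3, and in non-basal wells 3171, against 1164, 1153, 1259, 1862 and, without cycling wells, 1895. Between classes in BME 3890 genes were called, against 2568 with DESeq2, 335 thinned, 1887 without cycling wells and 2332 without the block. In Collagen I 863 were called, against 215 thinned, 546 without cycling wells, 419 without stressed wells, 275 without plate 1 and 411 without the block. For the difference 404 were called, against 26 thinned, 153 without stressed wells, 262 without BME plate 1, 187 and 229 without Collagen I plates 1 and 3, and 106 without the block, and RLE scaling moved the share of positive calls to 42.1%, against 30.9%. Depth limits Elf5, Cited1, Gata3 and Esr1 in Collagen I.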
